A study of Mus musculus with 4 samples.

Results

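Interferon-stimulated antiviral genes are the genes that a cell switches on when interferon reaches it, and their products sense, edit, degrade or block viral nucleic acids. The set described here held 35 mouse genes, chosen by symbol from the deposited tables, with the interferon regulatory factors, the signal transducers and the guanylate-binding and immunity-related GTPases kept apart as families of their own, although the GTPase gene Ifi47 was left in. All 35 symbols were found among the 23284 in the tables, and all 35 were above the minimum of 1 FPKM used for testing. FPKM are fragment numbers divided by transcript length and by the depth of the library, so that levels of different genes are given per length.

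The cells were bone marrow-derived macrophages, a primary culture model of tissue macrophages, from wild-type mice of a strain, sex and age not given in the sources used here. The galectin-1 group had 2 libraries from cells that received galectin-1, a lectin that binds galactosides, as recombinant mouse protein for 24 h. The vehicle group had 2 libraries from cells kept for the same time with phosphate-buffered saline. Both groups had first been exposed to lipopolysaccharide (LPS) at 1 µg/ml for 1 h. The dose of galectin-1 was not stated, nor was it stated whether each library stands for a culture or animal of its own. No library of cells without LPS was analysed here, so the levels below are levels after LPS and cannot be read as induction. Each p-value therefore rests on the spread between libraries that may differ only technically.

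In macrophages LPS binds Toll-like receptor 4, whose adaptor TRIF leads through the kinase TBK1 and the factor IRF3 to interferon beta. Interferon beta then acts on the type I interferon receptor of the same and neighbouring cells, where the kinases JAK1 and TYK2 pass the signal on. It ends at the interferon-stimulated response element, a DNA element with repeated GAAA blocks in the promoters of antiviral genes. Interferon gamma acts through another element, the gamma-activated sequence.

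Promoter windows of 300 bases were at hand for 25 of the 35 genes in a RefSeq table of build GRCm38.p6, the assembly of mm10. Each ran from 250 before to 50 after a transcription start. That start, called the RefSeq start below, could lie inside the gene as placed by its RefSeq gene coordinates. The core of the interferon-stimulated response element was searched on both strands as GAAA, any 2 bases and GAAA, read on the other strand as TTTC, any 2 bases and TTTC, and is called the ISRE-like motif below. Of the 25 genes, 13 (52.0%) held a match, against 3.99% of all 27025 genes with a window. The shorter form GAAANNGAA, which every match to the longer form contains, was held by 15 of the 25 and by 9.76% of all genes. The palindromic letters TTCNNNGAA of the gamma-activated sequence were held by 9 of 25 (36.0%) and by 9.55% of all genes. A match is a description of these letters and no measure of binding.

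The following stretches of 60 bases, from the part of the window before the RefSeq start, are shown because they belong to the most abundant transcripts that hold the motif before the start, to a pair of near-identical genes, and to Xaf1, which passed the test below. They are written 5′ to 3′ along the gene, with the bases of every match in capitals.
Ifit1, chr19:34640770-34640829, plus strand: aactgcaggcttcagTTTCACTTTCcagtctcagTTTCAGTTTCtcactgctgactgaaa
Ifit3, chr19:34583365-34583424, plus strand: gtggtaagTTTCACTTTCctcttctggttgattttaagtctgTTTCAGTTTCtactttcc
Isg15, chr4:156200856-156200915, minus strand: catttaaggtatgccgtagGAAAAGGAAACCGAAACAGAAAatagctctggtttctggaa
Rsad2, chr12:26456538-26456597, minus strand: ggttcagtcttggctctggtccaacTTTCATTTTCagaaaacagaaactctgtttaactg
Oas1a, chr5:120907526-120907585, minus strand: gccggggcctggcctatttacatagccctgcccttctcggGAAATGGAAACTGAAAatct
Oas1g, chr5:120887614-120887673, minus strand: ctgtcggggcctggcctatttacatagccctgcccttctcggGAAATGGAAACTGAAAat
Xaf1, chr11:72301569-72301628, plus strand: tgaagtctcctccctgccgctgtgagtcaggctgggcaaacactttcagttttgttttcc
In Isg15 the capitals are 3 overlapping matches that begin at positions -78, -72 and -66. Ifit1 and Ifit3 each held 2 separate matches, and Oas1a and Oas1g each held 2 overlapping ones close to the start. Ifitm3, also abundant, held its 2 matches after the start and is not shown. The windows of Oas1a and Oas1g were 85.3% identical over their alignment. By the gene coordinates, which begin at chr19:34583119 for Ifit3 and chr11:72301461 for Xaf1, the printed stretches of both lie inside the gene. The stretch of Oas1a lies inside in part, since its gene ends at chr5:120907544. Xaf1 held no match in its window, which says only that these letters are not there.

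**Figure D1:**
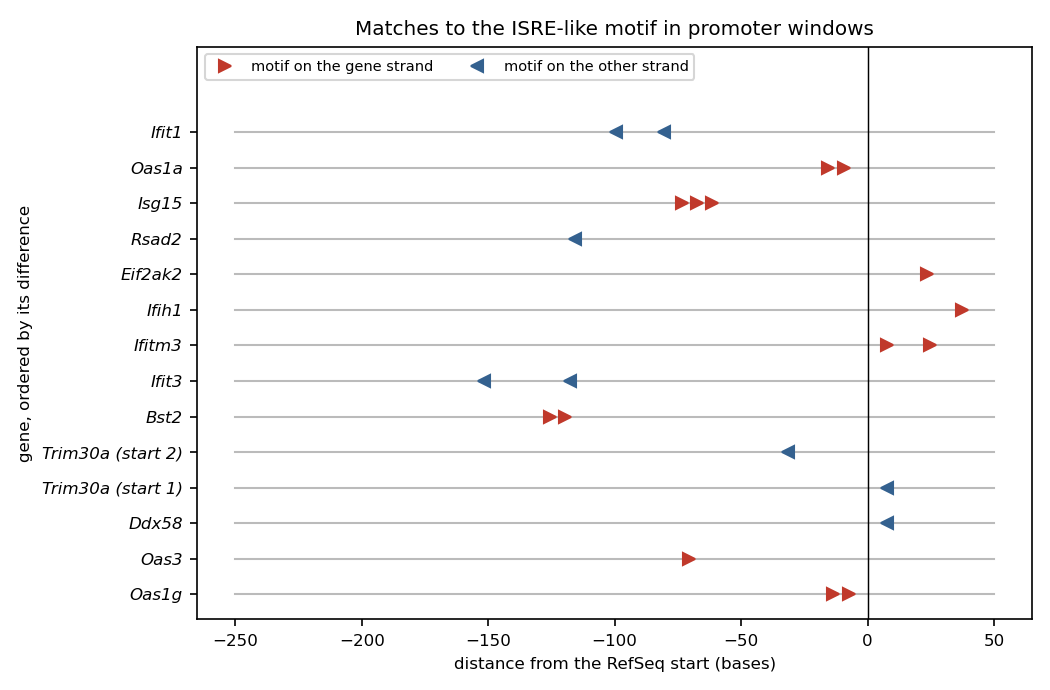
Positions of matches to the ISRE-like motif in the promoter windows of the 13 genes that held it, with 2 windows for Trim30a. The horizontal axis is the distance from the RefSeq start in bases, each grey line is 1 window and arrows give the strand. Genes are ordered by the difference between galectin-1 and vehicle, from Ifit1 (log2 difference 0.15) at the top to Oas1g (-0.19) at the bottom. Genes with a window and no match are not drawn, among them Ifi35 (0.16) and Xaf1 (-0.23), which lie beyond those ends.

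With galectin-1, 1 of the 35 antiviral genes passed the threshold. Xaf1, which encodes a pro-apoptotic antagonist of XIAP known from human cells, was that gene, and it fell by 14.7% with galectin-1 as a ratio of means. The differences of the other 34 genes did not pass. Differences were positive for 18 genes and negative for 17, with a median of 0.016 on the log2(FPKM + 1) scale, beside a median of 0.0024 over the 9380 genes tested. They ran from -0.23 in Xaf1 to 0.16 in Ifi35, whose product is a partner of the interferon-induced protein NMI.

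The groups were compared with limma, a linear model with moderated variances fitted to all 9380 genes, with a 2-sided Benjamini-Hochberg adjusted p under 0.05 as the threshold. It called 1 of the 35 genes, 0 higher and 1 lower, where 1.19% of all tested genes were called, 0.608% higher and 0.586% lower. At an unadjusted p under 0.05 there were 9 antiviral genes higher and 8 lower, together 48.6%, against 23.2% of all tested genes, 12.2% higher and 11.0% lower. The values of the galectin-1 and vehicle libraries did not overlap in 24 of the 35 genes (68.6%), against 55.4% of all tested genes. The antiviral genes lay at high levels. Among the 2536 tested genes between their lowest and highest level 33.8% had an unadjusted p under 0.05, 63.8% did not overlap and 3.08% were called. The 2536 genes were not matched to the median level of the antiviral genes, and the part of level in these shares was not tested.

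The median absolute log2 difference was 0.081 for the antiviral genes, 0.072 for the 2536 genes within their range of levels and 0.091 for all tested genes. The median standard error was 0.032 for the antiviral genes, 0.041 for the genes within that range and 0.072 for all tested genes. The 95% intervals of the 35 differences reached no lower than -0.33, in Oas1g with an interval from -0.33 to -0.049, and no higher than 0.26, in Oas1b.

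**Figure D2:**
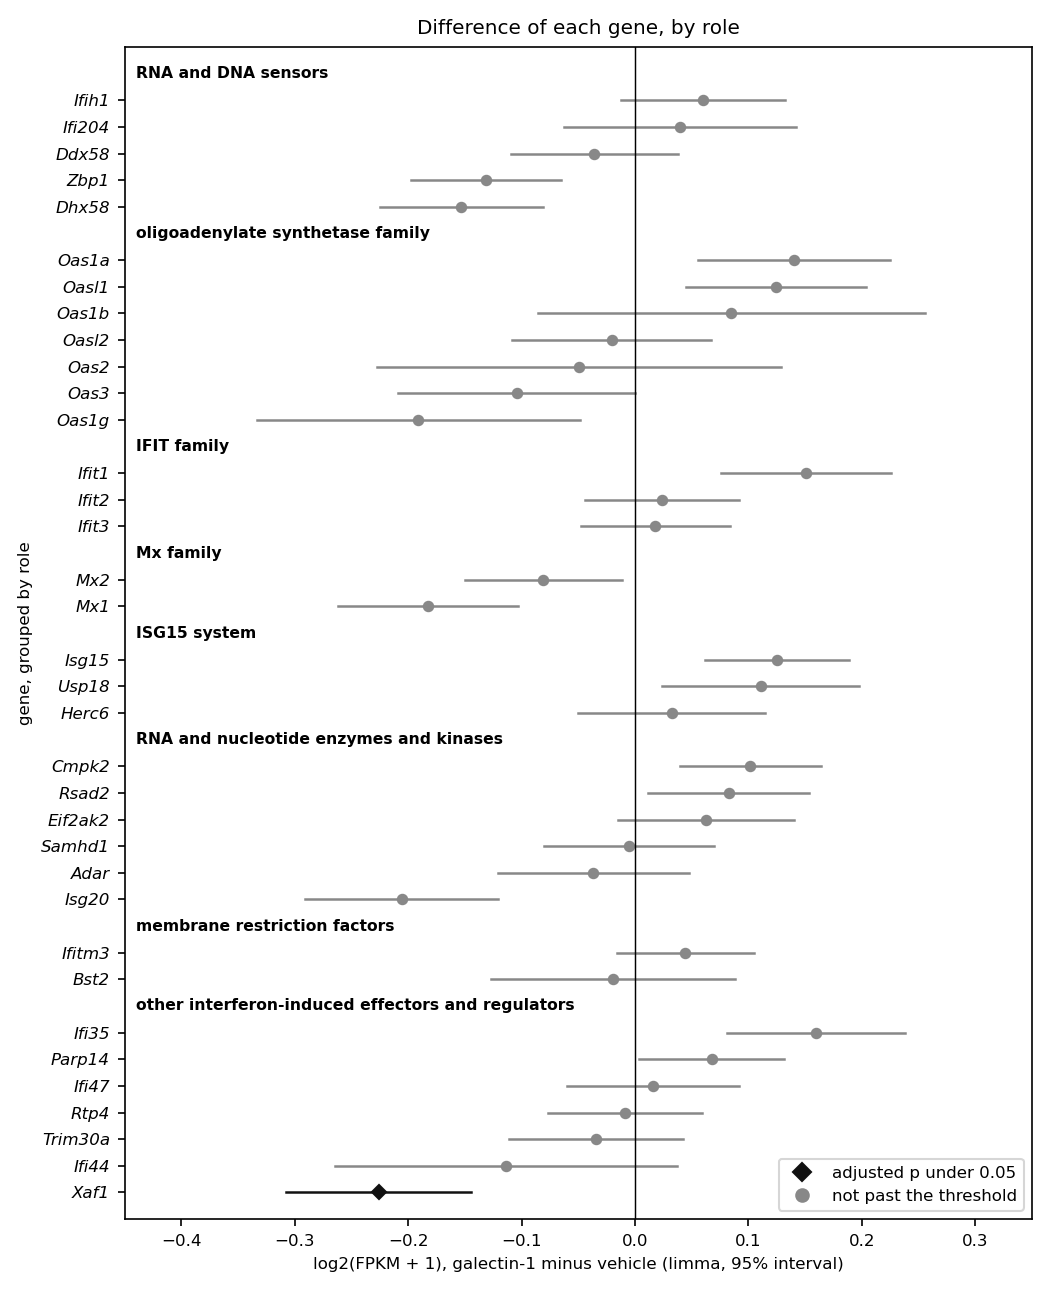
Difference of each of the 35 genes, as galectin-1 minus vehicle on the log2(FPKM + 1) scale along the horizontal axis, with its 95% limma interval, grouped by role down the page. The black diamond, Xaf1 at -0.23, is the gene past the adjusted threshold, and within the oligoadenylate synthetases the values run from -0.19 in Oas1g to 0.14 in Oas1a.

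**Figure D3:**
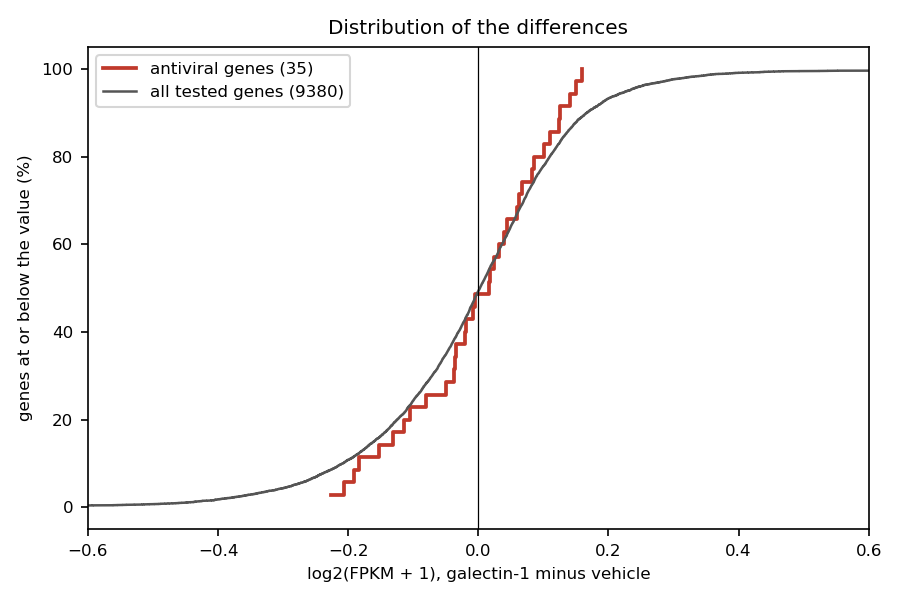
Cumulative share of genes, in percent, at or below each log2 difference of galectin-1 minus vehicle, for the 35 antiviral genes and for all 9380 tested genes, with the axis limited to 0.6 in either direction. Both curves cross 0 near the middle, with 51.4% positive differences among the antiviral genes and 50.7% among all tested genes.

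The 35 transcripts were abundant in all 4 libraries. Together they held 5.01% and 4.97% of the summed FPKM of the galectin-1 libraries, against 4.83% and 4.98% in the vehicle libraries, so that vehicle replicate 1 was the lowest and vehicle replicate 2 lay between the galectin-1 libraries. Their median level was 326 FPKM, beside 9.37 FPKM for all tested genes. Of the 35, 6 were among the 50 highest genes by mean FPKM, 23 among the 500 highest and 32 among the 1000 highest.

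**Figure D4:**
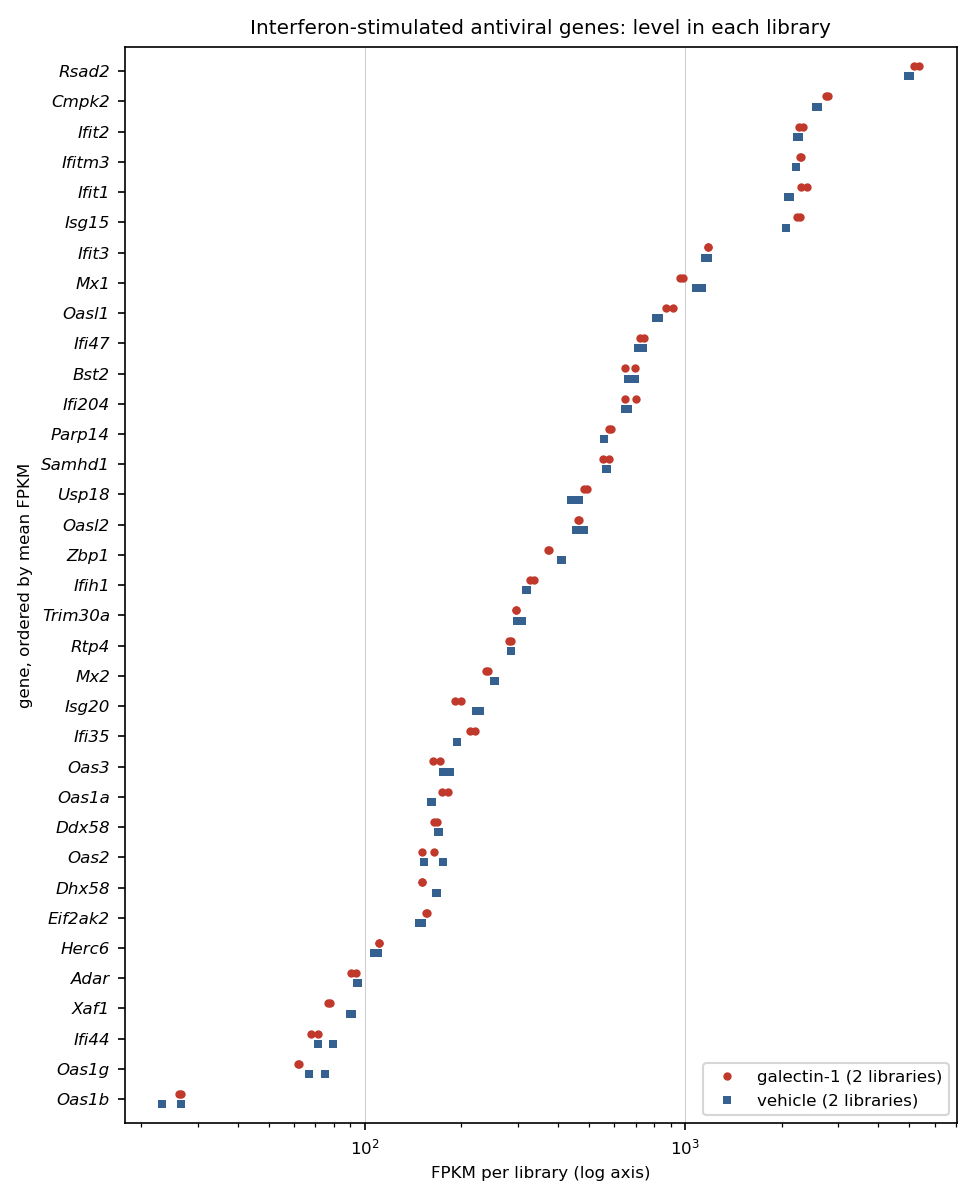
FPKM of each of the 35 genes in every library on a log axis, with genes ordered by mean level down the page, galectin-1 libraries as circles and vehicle libraries as squares just beneath them. Rsad2 is the highest, between 4943 and 5370 FPKM, Oas1b is the lowest, between 23.3 and 26.7 FPKM.

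The sensors recognise foreign nucleic acid. Ddx58 encodes RIG-I and Ifih1 encodes MDA5, helicases that detect viral RNA and signal through MAVS, while Dhx58 encodes LGP2, a relative without the signalling domains that modulates both. Dhx58 had 150.4 and 150.4 FPKM in the galectin-1 libraries, against 168 and 167 FPKM in the vehicle libraries (log2 difference -0.15, standard error 0.029, adjusted p = 0.069). Both galectin-1 libraries lay below both vehicle libraries, but the difference missed the threshold. Zbp1, a sensor of Z-form nucleic acid that triggers necroptosis in mouse cells, had 371 and 376 FPKM in the galectin-1 libraries, against 408 and 411 FPKM in the vehicle libraries (log2 difference -0.13, standard error 0.027, adjusted p = 0.0773). These groups did not overlap either, and the difference missed the threshold.

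The other sensors lay closer together. Ifih1 averaged 332 ± 6.56 FPKM with galectin-1 and 319 ± 1.73 FPKM with vehicle (SD, n = 2 each; log2 difference 0.060, adjusted p = 0.286), and its groups did not overlap. Ddx58 averaged 166 ± 2.36 FPKM with galectin-1 and 169.8 ± 0.622 FPKM with vehicle (log2 difference -0.036, adjusted p = 0.515). Ifi204, a mouse DNA-binding protein of the PYHIN family, averaged 673 ± 36.3 FPKM with galectin-1 and 654 ± 9.86 FPKM with vehicle (log2 difference 0.040, adjusted p = 0.605), and galectin-1 replicate 2 lay within the range of the vehicle libraries. Of the 50-base windows of its transcript, 30.2% also occur in transcripts of other genes, most often Ifi211, and the treatment of reads that fit several relatives was not stated. Dhx58 overlaps an exon of the antisense gene Dhx58os, and whether strand was used in counting was not stated. Of the 5 sensors, none passed, 2 differences were positive and 3 negative.

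The oligoadenylate synthetases make the second messenger that activates the ribonuclease RNase L. Oas1a, an active synthetase, had 174 and 182 FPKM in the galectin-1 libraries, against 162 and 160.1 FPKM in the vehicle libraries (log2 difference 0.14, standard error 0.034, adjusted p = 0.102). Its galectin-1 libraries were both higher. Its near copy Oas1g had 61.6 and 61.99 FPKM in the galectin-1 libraries, against 66.8 and 74.8 FPKM in the vehicle libraries (log2 difference -0.19, standard error 0.058, adjusted p = 0.136). Here both galectin-1 libraries were lower, and neither gene passed the threshold. The deposited levels of this pair depend on how reads were divided, since 57.6% of the 50-base windows of the Oas1a transcript also occur in Oas1g transcripts, and 54.1% of those of Oas1g in Oas1a transcripts. The ratio of Oas1a to Oas1g was 2.82 and 2.93 in the galectin-1 libraries, against 2.42 and 2.14 in the vehicle libraries. Their summed level was 235 and 244 FPKM in the galectin-1 libraries, against 229 and 235 FPKM in the vehicle libraries, a log2 difference of 0.046. Both galectin-1 sums lay above both vehicle sums, that of galectin-1 replicate 1 by less than 1 FPKM.

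The remaining members of the family lay on the same chromosome. Oas1b, a mouse gene of resistance to flaviviruses that lacks synthetase activity, had the lowest level of the set. It had 26.7 and 26.3 FPKM in the galectin-1 libraries, against 23.3 and 26.7 FPKM in the vehicle libraries (log2 difference 0.085, adjusted p = 0.503), and the groups overlapped. Oas2 and Oas3, the larger synthetases, averaged 158 ± 9.62 FPKM with galectin-1 and 164 ± 15.4 FPKM with vehicle for Oas2 and 167 ± 5.99 FPKM with galectin-1 and 179.7 ± 6.96 FPKM with vehicle for Oas3. The log2 difference was -0.049 for Oas2, whose groups overlapped, and -0.10 for Oas3, whose groups did not (adjusted p = 0.723 and 0.215 in limma). Oasl1, whose product restrains translation of Irf7 in the mouse, averaged 892 ± 27.7 FPKM with galectin-1 and 818 ± 13.04 FPKM with vehicle (log2 difference 0.12, adjusted p = 0.108), without overlap. Oasl2, a relative with ubiquitin-like domains, averaged 464 ± 2.96 FPKM with galectin-1 and 470.4 ± 19.4 FPKM with vehicle (log2 difference -0.021, adjusted p = 0.773). None of the 7 passed, with 3 differences positive and 4 negative.

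The IFIT proteins bind viral RNA and block its translation, and the 3 genes of the family described here lie on chromosome 19. Ifit1, which recognises RNA caps without the methylation of host caps, had 2393 and 2294 FPKM in the galectin-1 libraries, against 2125 and 2095 FPKM in the vehicle libraries (log2 difference 0.15, standard error 0.030, adjusted p = 0.0747). Both galectin-1 libraries were higher, and the difference missed the threshold. Ifit2 had 2322 and 2257 FPKM in the galectin-1 libraries, against 2233 and 2271 FPKM in the vehicle libraries (log2 difference 0.024, adjusted p = 0.647), and vehicle replicate 2 lay above galectin-1 replicate 2. Ifit3, which stabilises IFIT complexes in human cells, averaged 1178 ± 2.58 FPKM with galectin-1 and 1164 ± 21.1 FPKM with vehicle (log2 difference 0.018, adjusted p = 0.728). Of its 50-base windows, 51.2% also occur in transcripts of the neighbouring copy Ifit3b. The ratio of Ifit1 to Ifit2 was 1.03 and 1.02 in the galectin-1 libraries, against 0.952 and 0.922 in the vehicle libraries.

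The Mx proteins are dynamin-like GTPases that trap viral components, in mice Mx1 in the nucleus and Mx2 in the cytoplasm, and many inbred laboratory strains carry defective alleles of these genes. Mx1 had 983 and 962 FPKM in the galectin-1 libraries, against 1079.6 and 1129 FPKM in the vehicle libraries (log2 difference -0.18, standard error 0.032, adjusted p = 0.0614). The galectin-1 libraries were both lower, and the difference missed the threshold. Mx2 averaged 239.9 ± 2.42 FPKM with galectin-1 and 254 ± 0.878 FPKM with vehicle (log2 difference -0.081, adjusted p = 0.169), again without overlap. Both differences of this family were negative and neither passed.

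Isg15 is a ubiquitin-like protein that is attached to viral and host proteins. It had 2225 and 2276 FPKM in the galectin-1 libraries, against 2057 and 2068 FPKM in the vehicle libraries (log2 difference 0.13, standard error 0.026, adjusted p = 0.0777). Both galectin-1 libraries were higher, and the difference missed the threshold. Usp18, the protease that removes Isg15 and also dampens the type I interferon receptor, averaged 488 ± 6.56 FPKM with galectin-1 and 452 ± 17.5 FPKM with vehicle (log2 difference 0.11, adjusted p = 0.147). Herc6, the main ligase for Isg15 in the mouse, averaged 111 ± 0.107 FPKM with galectin-1 and 108 ± 2.50 FPKM with vehicle (log2 difference 0.032, adjusted p = 0.603), and 23.8% of its 50-base windows are shared with the overlapping transcript Gm45193. All 3 differences were positive and without overlap, and none passed.

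**Figure D5:**
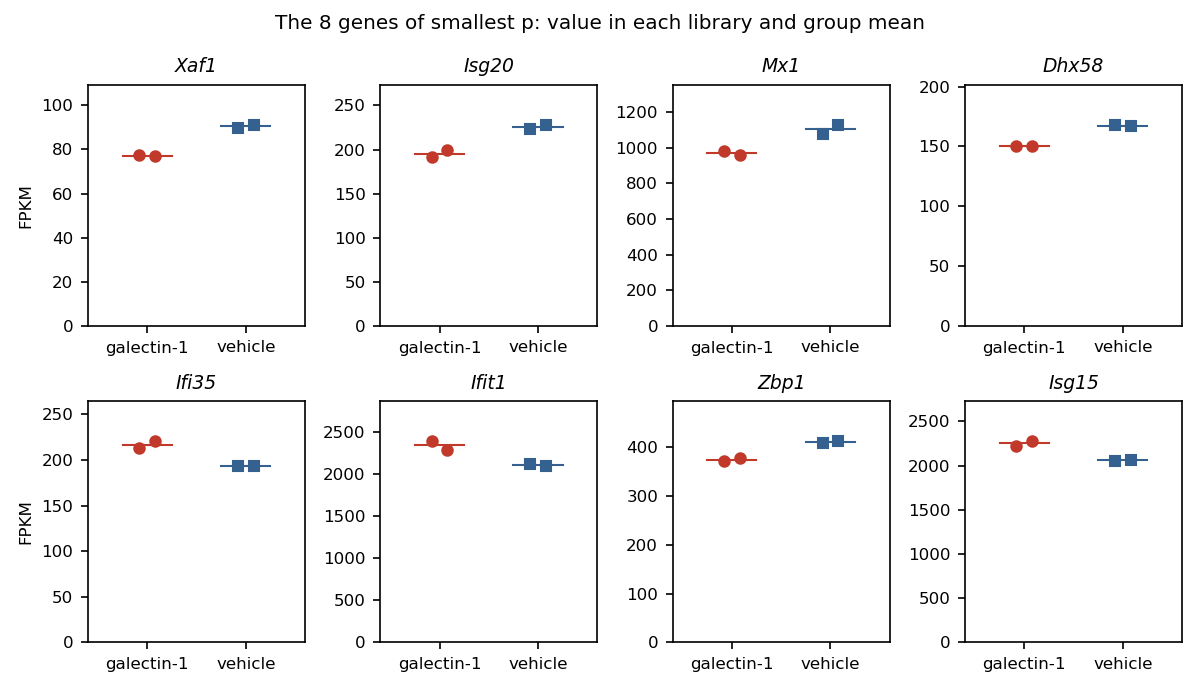
FPKM in each library for the 8 antiviral genes of smallest p, with galectin-1 on the left and vehicle on the right of each panel, a horizontal bar at each group mean and axes from 0. In every panel the libraries of the groups are apart, as genes chosen by p from these same libraries tend to be. Within the range of levels of the antiviral genes, 63.8% of 2536 tested genes had groups without overlap. Xaf1, Isg20, Mx1, Dhx58 and Zbp1 were lower and Ifi35, Ifit1 and Isg15 higher in the galectin-1 libraries. Of these 8 genes, Xaf1 alone passed the threshold.

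Of the enzymes that act on RNA and nucleotides, Rsad2 had the highest level of the set and was number 9 among all tested genes by mean FPKM. It encodes viperin, which turns CTP into a chain terminator of viral RNA synthesis. Rsad2 had 5369.7 and 5176 FPKM in the galectin-1 libraries, against 5014 and 4943 FPKM in the vehicle libraries (log2 difference 0.083, standard error 0.029, adjusted p = 0.169). The galectin-1 libraries were both higher. Cmpk2, a mitochondrial nucleotide kinase gene that lies beside Rsad2 on chromosome 12, at chr12:26469117-26479837 next to chr12:26442743-26456452, had 2789 and 2746 FPKM in the galectin-1 libraries, against 2562 and 2595 FPKM in the vehicle libraries (log2 difference 0.10, standard error 0.025, adjusted p = 0.104). Neither gene passed. The ratio of Rsad2 to Cmpk2 was 1.93 and 1.89 in the galectin-1 libraries, against 1.96 and 1.90 in the vehicle libraries, and these ranges overlapped.

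Isg20, an exonuclease that degrades viral RNA, had a negative difference where Rsad2 and Cmpk2 had positive ones. Isg20 had 191 and 199.6 FPKM in the galectin-1 libraries, against 223 and 228 FPKM in the vehicle libraries (log2 difference -0.21, standard error 0.035, adjusted p = 0.0589). Both galectin-1 libraries were lower, and the difference missed the threshold. Eif2ak2, the kinase PKR that halts translation when it binds double-stranded RNA, averaged 156 ± 1.15 FPKM with galectin-1 and 149 ± 2.83 FPKM with vehicle (log2 difference 0.063, adjusted p = 0.298). Adar, which edits adenosine to inosine in double-stranded RNA, averaged 92.1 ± 2.05 FPKM with galectin-1 and 94.5 ± 0.444 FPKM with vehicle (log2 difference -0.037, adjusted p = 0.557). Samhd1, which depletes the nucleotides needed for reverse transcription, averaged 566 ± 15.9 FPKM with galectin-1 and 568 ± 2.39 FPKM with vehicle (log2 difference -0.0052, adjusted p = 0.94). In this group none of the 6 passed, with 3 differences positive and 3 negative, and Samhd1 had an interval from -0.080 to 0.070.

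The membrane restriction factors act at entry and release of viruses. Ifitm3, which blocks fusion of endocytosed virus, had 2272 and 2303 FPKM in the galectin-1 libraries, against 2221 and 2216 FPKM in the vehicle libraries (log2 difference 0.044, standard error 0.025, adjusted p = 0.339). The groups did not overlap, and the difference did not pass the threshold. Bst2, also called tetherin, which holds budding virus at the cell surface, averaged 672 ± 31.9 FPKM with galectin-1 and 680.5 ± 25.1 FPKM with vehicle (log2 difference -0.019, adjusted p = 0.83), and its groups overlapped.

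Xaf1 lies at chr11:72301461-72313733 in GRCm38.p6. It had 77.5 and 76.8 FPKM in the galectin-1 libraries, against 89.6 and 91.2 FPKM in the vehicle libraries (log2 difference -0.23, standard error 0.033, adjusted p = 0.0477). The galectin-1 libraries differed from each other by less than 1 FPKM and both lay below the vehicle libraries. Of its 50-base windows, 2.94% occur in other genes. The call was lost without any 1 of the 4 libraries, while the log2 difference stayed between -0.24 and -0.21. Its adjusted p was 0.177 without vehicle replicate 1, 0.197 without vehicle replicate 2, 0.175 without galectin-1 replicate 1 and 0.227 without galectin-1 replicate 2, and it was 0.130 with no filter on low values and 0.142 without the trend of the variance with the mean, both with an unchanged difference of -0.23.

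Ifi35 had 213 and 221 FPKM in the galectin-1 libraries, against 194 and 194 FPKM in the vehicle libraries (log2 difference 0.16, standard error 0.032, adjusted p = 0.0741). It had the highest difference of the set, and both galectin-1 libraries were higher without a call. An exon of Ifi35 overlaps the antisense gene Gm11626, and exons of Oasl1, Usp18, Eif2ak2, Adar and Ifi47 overlap genes of the opposite strand as well. Parp14, Rtp4 and Ifi47 have exons in common with annotated genes of their own strand, so that their levels depend on how such reads were divided. Parp14, an ADP-ribosyltransferase of macrophages, averaged 583 ± 5.47 FPKM with galectin-1 and 556 ± 0.836 FPKM with vehicle (log2 difference 0.068, adjusted p = 0.199). Trim30a, which restrains Toll-like receptor signalling in the mouse, averaged 297 ± 0.577 FPKM with galectin-1 and 304 ± 8.03 FPKM with vehicle (log2 difference -0.035, adjusted p = 0.545). The groups did not overlap in Parp14 or in Trim30a, and neither gene passed. Rtp4, a chaperone of membrane receptors, averaged 284 ± 2.45 FPKM with galectin-1 and 285 ± 0.865 FPKM with vehicle (log2 difference -0.0086, adjusted p = 0.884). Ifi44 averaged 69.6 ± 2.67 FPKM with galectin-1 and 75.5 ± 5.98 FPKM with vehicle (log2 difference -0.11, adjusted p = 0.328). Ifi47, an immunity-related GTPase, averaged 733 ± 12.6 FPKM with galectin-1 and 725 ± 17.9 FPKM with vehicle (log2 difference 0.016, adjusted p = 0.798). Rtp4 and Ifi47 had differences within a fraction of their errors, and the groups overlapped in Ifi44, Rtp4 and Ifi47.

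A division of these 7 genes by sign gave 3 positive and 4 negative differences. When entries for small RNAs, whose replicates scattered widely, were left out of the fit, a choice made after the data were seen, 3 of the 35 genes were higher and 4 lower. These were Ifi35 (adjusted p = 0.0444), Ifit1 (0.0410) and Isg15 (0.0480) on the higher side and Xaf1 (0.0227), Isg20 (0.0284), Mx1 (0.0298) and Dhx58 (0.0435) on the lower side. In that fit 2.02% of 9336 tested genes were higher and 1.89% lower. The share among genes within the range of levels of the antiviral genes was not taken in that fit. In the main fit it was 3.08%, against 1.19% of all tested genes.

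The 13 genes with the ISRE-like motif in a window had a median log2 difference of 0.044, with 8 positive, and ran from -0.19 to 0.15. The 12 genes with a window and no match had a median of 0.0053, with 6 positive, and ran from -0.23 to 0.16. These splits are descriptions and were not tested.

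The rest of the pathway was followed through 3 lists, whose calls stand beside the 1.19% called among all tested genes. Of the genes for interferons, their receptors and signal transducers, 24 were found and 21 tested, of which Socs3, a feedback inhibitor of cytokine receptors, rose and the other 20 did not pass. Socs3 had 731 and 737 FPKM in the galectin-1 libraries, against 635 and 647 FPKM in the vehicle libraries (log2 difference 0.19, adjusted p = 0.0446). Ifnb1, the interferon beta gene, had 15.03 and 16.9 FPKM in the galectin-1 libraries, against 14.5 and 12.9 FPKM in the vehicle libraries (log2 difference 0.21, adjusted p = 0.201). Both galectin-1 libraries were higher, and the difference missed the threshold. Jak1, a kinase of the receptor, had 109 and 109 FPKM in the galectin-1 libraries, against 91.8 and 95.6 FPKM in the vehicle libraries (log2 difference 0.21, adjusted p = 0.0581). Pias1, a SUMO ligase, had 21.02 and 20.6 FPKM in the galectin-1 libraries, against 17.9 and 18.2 FPKM in the vehicle libraries (log2 difference 0.19, adjusted p = 0.0986). Jak1 and Pias1 were higher in both galectin-1 libraries and missed the threshold. Tyk2, another kinase of the receptor, had 22.8 and 25.7 FPKM in the galectin-1 libraries, against 26.6 and 30.3 FPKM in the vehicle libraries. Its galectin-1 libraries were both lower (log2 difference -0.22, adjusted p = 0.191 in limma), and the difference missed the threshold. Of these 21 genes, 12 differences were positive, with a median of 0.029. At an unadjusted p under 0.05 in limma, 7 of the 21 were higher and 2 lower, beside 12.2% and 11.0% of all tested genes.

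Of 17 tested genes of the sensing pathways upstream of interferon, Trim25, the ubiquitin ligase that assists RIG-I signalling, rose and 16 did not pass. Trim25 had 196 and 197 FPKM in the galectin-1 libraries, against 165 and 170.1 FPKM in the vehicle libraries (log2 difference 0.23, adjusted p = 0.0446). Ikbke, a kinase that phosphorylates IRF3, had 145 and 151 FPKM in the galectin-1 libraries, against 164 and 177 FPKM in the vehicle libraries (log2 difference -0.20, adjusted p = 0.0935). Tlr4, the LPS receptor, had 22.9 and 22.98 FPKM in the galectin-1 libraries, against 19.6 and 20.5 FPKM in the vehicle libraries (log2 difference 0.19, adjusted p = 0.105). Neither Ikbke nor Tlr4 passed. The median of this list was -0.016, with 8 differences positive. At an unadjusted p under 0.05 in limma, 5 of the 17 were higher and 3 lower, beside 12.2% and 11.0% of all tested genes.

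Of 51 tested further interferon-stimulated genes, 1 rose, 2 fell and 48 did not pass. Tor3a, an interferon-responsive ATPase gene, rose and had 247 and 255 FPKM in the galectin-1 libraries, against 209 and 213 FPKM in the vehicle libraries (log2 difference 0.25, adjusted p = 0.0428). Ddx60, a helicase linked to RIG-I signalling, fell and had 37.7 and 39.3 FPKM in the galectin-1 libraries, against 47.6 and 49.6 FPKM in the vehicle libraries (log2 difference -0.33, adjusted p = 0.0446). Apobec3, a cytidine deaminase that restricts retroviruses, fell as well and had 102 and 100.4 FPKM in the galectin-1 libraries, against 118 and 120.2 FPKM in the vehicle libraries (log2 difference -0.23, adjusted p = 0.0446). The median of the 51 was -0.010, with 24 positive. At an unadjusted p under 0.05 there were 8 higher and 12 lower, beside 12.2% higher and 11.0% lower among all tested genes. In either direction the share was 33.8% among the 2536 genes within the range of levels of the antiviral genes. None of these shares was matched to the levels of the listed genes.

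Macrophage markers were present in each library and markers of other cells were low. All 10 macrophage markers were tested and none passed, although 9 differences were positive, with a median of 0.12. At an unadjusted p under 0.05 in limma, 7 were higher and 1 lower, beside 12.2% and 11.0% of all tested genes. Those shares were not matched to the high level of most of these markers. The summed level of the 10 markers was 10219 and 10201 FPKM in the galectin-1 libraries, against 9420 and 9414 FPKM in the vehicle libraries. Most of that sum was Lyz2, which averaged 6246 FPKM with galectin-1 and 5701 FPKM with vehicle. The dendritic cell markers numbered 10, of which 3 could be tested, and Fscn1, whose product bundles actin in mature dendritic cells, fell (log2 difference -0.47, adjusted p = 0.0425 in limma). That list summed to 17.5 and 17.9 FPKM in the galectin-1 libraries, against 22.8 FPKM in each vehicle library. The 10 fibroblast markers, of which 6 were tested and none passed, summed to 21.9 and 22.0 FPKM with galectin-1 and 18.0 and 17.9 FPKM with vehicle. The dendritic cell sums were made up mostly of Fscn1, which averaged 8.01 FPKM with galectin-1 and 11.5 FPKM with vehicle, and Ccl22, which averaged 7.34 FPKM with galectin-1 and 9.04 FPKM with vehicle and did not pass. Ccr7, also tested, averaged 1.25 FPKM with galectin-1 and 1.44 FPKM with vehicle and did not pass. None of the 3 tested differences was positive. The untested dendritic cell markers all averaged below 1 FPKM. Of these, Flt3, Zbtb46, Xcr1, Clec9a, Siglech and Dpp4 had higher means with galectin-1. Cd209a had a lower one, 0 FPKM against 0.057 FPKM with vehicle. Fibroblast sums were higher in both galectin-1 libraries. Neutrophil markers (7 found, Elane and Ngp at 0) summed to 2.60 and 1.64 FPKM with galectin-1 and 3.17 and 1.70 FPKM with vehicle. For T, NK and B cells (9 found, Cd3e, Cd3g and Nkg7 at 0) the sums were 0.213 and 0.325 FPKM with galectin-1 and 0.225 and 0.153 FPKM with vehicle. The part of the macrophage, dendritic cell and fibroblast markers in the difference of Xaf1 or of any other antiviral gene was not tested, and in bulk RNA fewer cells of a type and less RNA per cell cannot be told apart.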

How the data were processed

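The authors deposited FPKM values per gene symbol and library, and TopHat2 (2.0.13), Cufflinks (2.2.1), Bowtie2 (2.2.3) and SAMtools (0.1.19) appear without their roles, with build mm10, in the submitters' processing notes. The annotation, read filters, use of strand and handling of shared reads were not stated. Reads or counts were not used here. The steps of low FPKM values gave depths of 1.02, 0.879 and 0.964 for galectin-1 replicates 1 and 2 and vehicle replicate 2 relative to vehicle replicate 1, so only relative depth is known and no counting interval is given. Library totals were 541138 to 557661 FPKM.

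The scale was log2(FPKM + 1). The 9380 genes that averaged 1 FPKM or more were fitted with limma 3.58.1 in R 4.3.3 with a variance trend, with 2 residual and 3.89 prior degrees of freedom, and adjusted over all of them. The procedure was tested on simulated data with values drawn independently for each library, which does not cover shifts that libraries share. With 2 libraries in each group the smallest 2-sided permutation p is 0.333. Fold changes on this scale understate the change of low genes. Correlations of log2 values within groups were 0.988 (galectin-1) and 0.983 (vehicle), or 0.998 and 0.997 without small RNA entries, and no libraries were identical.

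Members and lists were chosen with earlier results of these data known. All 35 members are named. Values in every library are given for members past the threshold, the 8 of smallest p, the 4 highest and 4 lowest differences, the 6 of highest level and at least 1 per role, and from each list for called genes and up to 3 of smallest p. Ifnb1, Tyk2, Tlr4 and Oas1b were named beside them for their roles or level. Of 10 list symbols missing from the tables, 5 were found under another symbol by RefSeq synonyms. Promoters and coordinates came from RefSeq for GRCm38.p6, and shared 50-base windows and exon overlaps from GENCODE M21 transcripts of GRCm38, with the longest protein-coding transcript per gene.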

Additional observations from a re-analysis of the deposited data

How the results depend on the processing

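Over 12 alternatives, the 35 single differences gave 420 values, of which 388 kept their direction and their side of the threshold, 11 newly passed, 6 no longer passed (all Xaf1) and 15 changed sign. None of the 17 genes with an unadjusted p under 0.05 changed sign. Their groups did not overlap, so leaving out 1 library could not change a sign. A changed filter, trend or block leaves the difference itself as it was. Only quantile normalization or another rescaling of the libraries could have changed a sign here. Called antiviral genes were 0 higher and 0 lower with no filter on low values and without the trend, 0 and 3 at a minimum of 5 FPKM, 1 and 3 with the replicate block and 3 and 4 without small RNA entries. Leaving out 1 library gave 0 and 0 in each case. Called genes over all tested were 1 higher and 2 lower with no filter, 127 and 99 at a minimum of 5 FPKM, 24 and 47 after quantile normalization, 1 and 1 without the trend, 123 and 117 with the replicate block and 189 and 176 without small RNA entries. Quantile normalization thereby made 33.8% of the calls increases, against 50.9%. Leaving out 1 library gave 4 to 9 higher and 3 to 12 lower. With fewer entries tested or libraries fitted the construction of the fit changed, and otherwise the cause was not tested. The median of the antiviral genes was -0.024 after quantile normalization and ran from -0.0093 to 0.036 when 1 library was left out. Signs reversed after quantile normalization in Ifit2 (-0.024), Rtp4 (0.012) and Ifi47 (-0.034). Without 1 library the differences changed sign and ran from -0.0093 to 0.041 in Ifi47, -0.14 to 0.046 in Oas2, -0.068 to 0.029 in Bst2, -0.0094 to 0.18 in Oas1b, -0.00050 to 0.036 in Ifit3, -0.062 to 0.021 in Oasl2, -0.015 to 0.095 in Ifi204, -0.034 to 0.023 in Samhd1 and -0.017 to 0.00021 in Rtp4. Over all tested genes the deviations of same-numbered libraries had a correlation of 0.011, or 0.042 without small RNA entries. A correlation over all genes cannot show whether same-numbered libraries were paired for the antiviral genes, and pairing was not stated. The replicate block moved the count of antiviral calls from 1 to 4. Depth is known only relative to 1 library.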
